A study of Mus musculus with 16 samples.

Results

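The genes described here encode the enzymes that break down fatty acids in mitochondria and peroxisomes, with a few regulators and targets of the nuclear receptor PPARα. They were chosen by name: all 31 genes of the list were found among the 20790 genes of the day 2 table and the 20658 genes of the day 4 table, of which 19964 are in both. RNA was sequenced from epithelial organoids of mouse jejunum (C57BL/6) with the genotype Villin-CreERT2; Hnf4aflox/flox. All 4 groups carried the floxed Hnf4a alleles and a recombinase that is driven by the Villin promoter, and thus made in epithelial cells, and activated by tamoxifen. The groups were organoids given 0.5 µM 4-hydroxytamoxifen (4OHT) for 24 h before passage and organoids given the solvent DMSO, each at day 2 and at day 4, with 4 libraries per group and 16 in all. The labels do not say how many animals or organoid lines the libraries came from, so each p-value is set against the variation from library to library, which may be technical only. The treatment comparisons set 4OHT organoids, in which Hnf4a was to be deleted, against DMSO organoids that kept it. No group tells the effect of 4OHT and Cre activity apart from that of Hnf4a loss.

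Long-chain fatty acids are activated to acyl-CoA, carried into mitochondria as carnitine esters and shortened in a repeating cycle of dehydrogenation, hydration, a second oxidation and thiolytic cleavage. Peroxisomes run a related cycle with their own enzymes, mainly for very long chains, and both can feed acetyl-CoA to ketone body synthesis. In enterocytes these pathways handle dietary fat, and many of their genes are textbook targets of PPARα, which shares DNA-binding preferences with HNF4α, the nuclear receptor encoded by Hnf4a.

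Every 4OHT library had less Hnf4a than any DMSO library of its day. On the CPM scale, the usual scaling of counts to library size, with TMM factors over all 16 libraries, it had 518, 532, 505 and 479 CPM in 4OHT organoids at day 2, against 999.8, 1037, 1051 and 985 CPM in DMSO organoids. Day 4 libraries had 472, 493, 465 and 454 CPM in 4OHT organoids, against 961, 978, 970.4 and 972 CPM in DMSO organoids. Its level thus stood at 50.3% and 48.6% of the DMSO level at day 2 and day 4 (adjusted p = 8.25e-08 and 1.14e-06, edgeR's quasi-likelihood test). The counts cover the whole gene, including exons outside any floxed part, so they do not give the share of recombined alleles. Library totals lay between 63.8 and 93.3 M counts. Epithelial markers summed to at least 6327 CPM in every library, while the 2 listed stromal markers that both tables hold summed to at most 0.368 CPM. One library, replicate 4 of 4OHT at day 4, stood apart on the second principal component (19.7, against 5.96 to 12.4 in the other 3 of its group).

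The estimates for the fatty acid oxidation genes were lower in 4OHT organoids for 25 of the 30 members tested at day 2, and higher for 22 of the 31 tested at day 4. Of the 30 members, 12 fell and 2 rose at an adjusted p below 0.05, where 14.3% of all 15897 genes tested fell and 16.9% rose. Of the 31 members at day 4, 2 fell and 10 rose, where 11.1% of all 16040 genes fell and 13.7% rose. The median log2 fold change of the members was -0.15 at day 2 and 0.11 at day 4, against -0.00 and -0.01 for all genes tested. The 4OHT libraries were all above the DMSO libraries for 1 member and all below them for 9 at day 2, where 16.6% and 15.8% of all genes were, and for 10 and 4 at day 4, where 14.6% and 13.5% were. The changes were small: past a 1.5-fold change, 1 member fell and 1 rose at day 2, and 2 rose at day 4. At day 4 the replicate numbers paired the libraries, and a fit with the replicate number as a block called 15 higher and 5 lower members, where it called 22.8% of all genes higher and 22.2% lower. Without 4OHT replicate 4, the library that stood apart, 9 members rose and 1 fell at day 4.

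**Figure D1:**
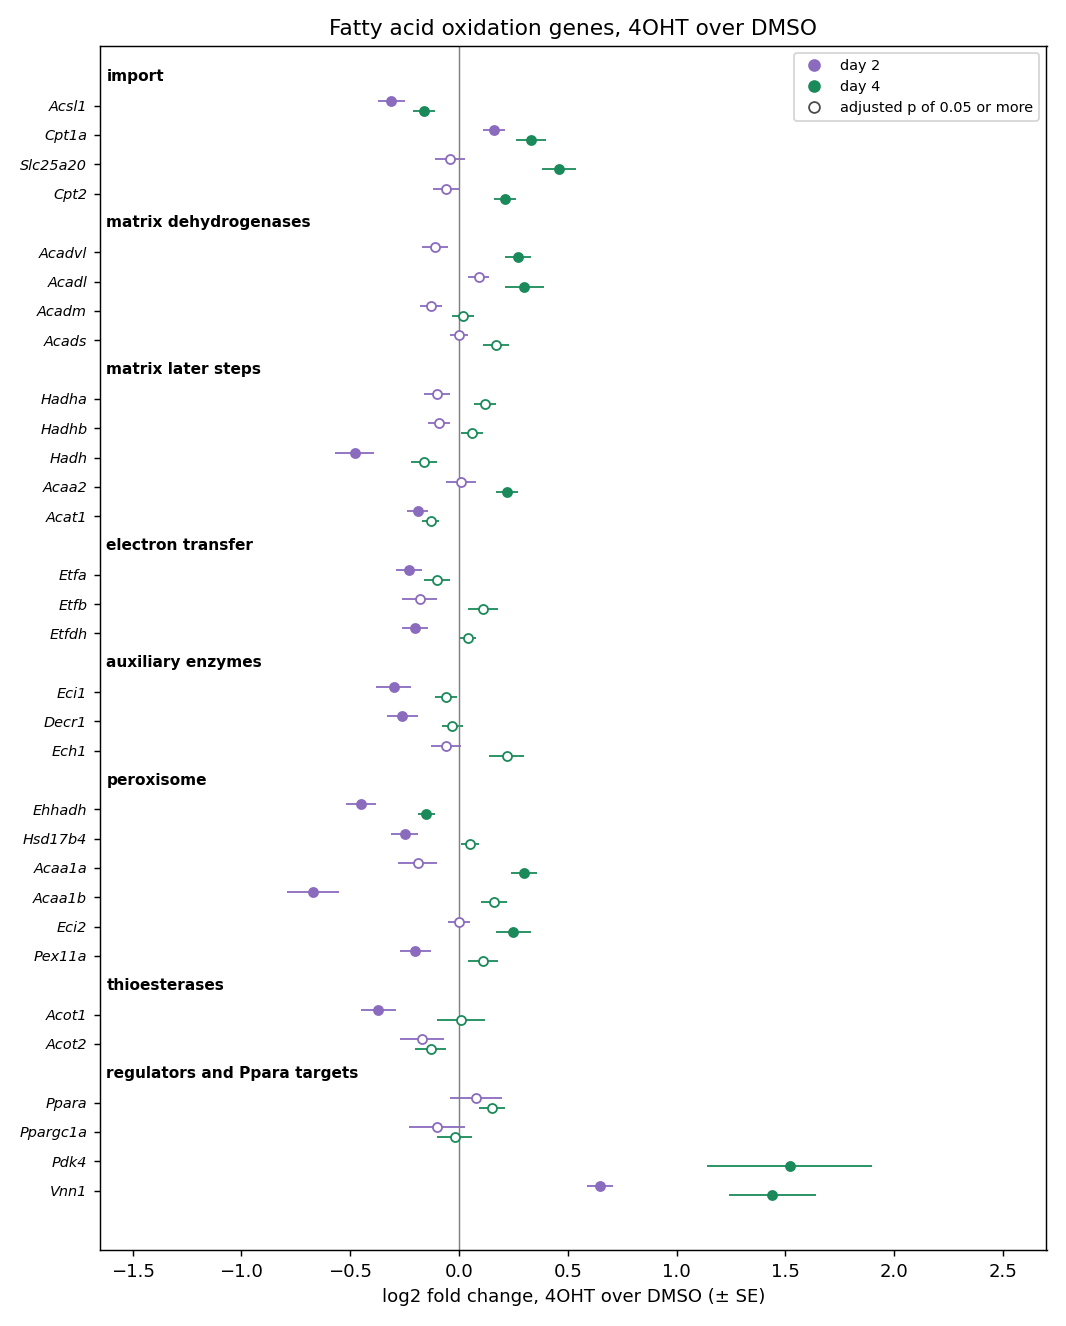
Log2 fold change of each member, 4OHT over DMSO, with its standard error (SE), at day 2 (purple) and day 4 (green), grouped by role; filled points have an adjusted p below 0.05. Most day 2 points lie left of 0, and every member's day 4 point lies to the right of its day 2 point; Pdk4 was too low for the day 2 test.

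The interaction estimates of the members shared 1 sign, although few passed the test. In the interaction, which is the day 4 log2 fold change minus the day 2 log2 fold change fitted over all 16 libraries, the estimate was positive for all 31 members, where 51.2% of all 16597 genes tested were positive. The median was 0.25 for the members and 0.01 for all genes. Of the members, 5 passed the interaction test with a positive sign and 0 with a negative one, where 1.2% and 0.476% of all genes did. These 5 were Acaa1b, Acaa1a, Slc25a20, Acadvl and Hsd17b4. With each library left out in turn, 29 to 31 estimates were positive. Acaa1b passed in all 16 of these fits, Slc25a20 in 6, Acadvl and Acaa1a in 5 each and Hsd17b4 in 3, with an adjusted p of at most 0.12 otherwise. All 5 passed without 4OHT day 2 replicate 2, DMSO day 2 replicate 4 or 4OHT day 4 replicate 4. The number of members that passed was 9 without either of the first pair of these libraries. It was 3 without 4OHT day 4 replicate 1, and 2 without 4OHT day 2 replicate 1 or DMSO day 4 replicate 1 or 4. It was 1, Acaa1b, without 4OHT day 2 replicate 3 or 4, DMSO day 2 replicate 1, 2 or 3, 4OHT day 4 replicate 3, or DMSO day 4 replicate 2 or 3. Hsd17b4 also missed with DESeq2 size factors (adjusted p = 0.0529) and with no filter on low counts (0.055). A fit with a replicate block within each day, although the numbers were not shown to pair libraries at day 2, called 16, all positive, where it called 7.05% of all genes positive and 4.1% negative.

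The promoter windows of 4 of these 5 genes are shown because the genes share the difference between days; each runs from 250 bases before an annotated transcript start to 50 bases after it (RefSeq, GRCm38.p6, 5′ to 3′ on the gene's strand), and capitals mark AGGTCA, the core element that nuclear receptors bind, on either strand. The Acaa1a window surrounds a start inside the gene, downstream of the first base that RefSeq gives the gene; the other 3 surround the first base of their gene. The windows lie at chr9:119157044-119157343 (minus strand) for Acaa1b, chr9:119341044-119341343 (plus) for Acaa1a, chr9:108661886-108662185 (plus) for Slc25a20 and chr11:70015379-70015678 (minus) for Acadvl.
Acaa1b: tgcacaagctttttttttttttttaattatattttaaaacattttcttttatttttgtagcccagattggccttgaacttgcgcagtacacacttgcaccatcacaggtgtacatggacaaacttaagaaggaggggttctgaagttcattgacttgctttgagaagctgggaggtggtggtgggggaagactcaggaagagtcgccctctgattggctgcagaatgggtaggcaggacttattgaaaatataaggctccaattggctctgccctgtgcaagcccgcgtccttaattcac
Acaa1a: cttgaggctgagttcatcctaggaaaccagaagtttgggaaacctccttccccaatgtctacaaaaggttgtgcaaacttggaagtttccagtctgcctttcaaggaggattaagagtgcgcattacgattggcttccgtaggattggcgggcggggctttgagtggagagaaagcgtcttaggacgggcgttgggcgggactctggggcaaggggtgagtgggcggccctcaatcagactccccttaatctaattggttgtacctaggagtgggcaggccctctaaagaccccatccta
Slc25a20: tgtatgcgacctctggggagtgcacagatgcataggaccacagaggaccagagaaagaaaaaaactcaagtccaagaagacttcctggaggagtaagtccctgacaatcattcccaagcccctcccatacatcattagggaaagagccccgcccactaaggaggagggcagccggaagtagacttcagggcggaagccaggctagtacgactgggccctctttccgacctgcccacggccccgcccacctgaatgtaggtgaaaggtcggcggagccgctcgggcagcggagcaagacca
Acadvl: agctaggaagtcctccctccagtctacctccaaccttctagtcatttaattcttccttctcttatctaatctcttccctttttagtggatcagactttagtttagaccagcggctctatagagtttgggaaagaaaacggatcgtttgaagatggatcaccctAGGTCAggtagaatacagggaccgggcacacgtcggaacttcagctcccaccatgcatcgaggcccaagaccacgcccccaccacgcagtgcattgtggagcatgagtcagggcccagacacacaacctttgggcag

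Only the Acadvl window of these 4 held the element, which starts at position -87 from that transcript start. Among the members, 26 had 27 windows in the table, and 3 windows (11.1%), those of Acadm, Acadvl and Cpt1a, held AGGTCA on either strand, as did 16.3% of all 32851 windows. On either strand, neither a direct repeat of the element spaced by 1 base, searched as AGGNCANAGGNCA, nor CAAAGTCCA, an HNF4-type sequence, was found in a member window; they were in 0.381% and 0.475% of all windows. These counts say only which letters the windows hold. Hadha and Hadhb, which encode the α and β subunits of the trifunctional protein, are read in opposite directions from starts 273 bases apart, and their windows share 228 bases.

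Acaa1b and Acaa1a encode the peroxisomal thiolases, which cleave acetyl-CoA from the shortened chain. Acaa1b had 29.1, 27.9, 22.1 and 23 CPM in 4OHT organoids at day 2, against 46.9, 37, 46.7 and 33.3 CPM in DMSO organoids. The groups did not overlap, and Acaa1b fell to 62.8% of the DMSO level (log2 fold change -0.67 ± 0.12 SE, adjusted p = 0.00132). Acaa1b at day 4 had 72, 85.9, 80.9 and 77.6 CPM in 4OHT organoids, against 66.9, 72.4, 74.6 and 68.7 CPM in DMSO organoids. These groups overlapped, and the difference of 0.16 ± 0.06 did not pass the test (adjusted p = 0.0755), but did with the replicate block (adjusted p = 0.00203) and without 4OHT replicate 1 (0.0315). The difference between the days was 0.84 ± 0.15 (adjusted p = 0.0121) and passed without any 1 of the 16 libraries (adjusted p 0.00193 to 0.0328).

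Acaa1a had 151, 151, 129 and 122 CPM in 4OHT organoids at day 2, against 184, 161, 158 and 135 CPM in DMSO organoids. The groups overlapped and the difference of -0.19 ± 0.09 did not pass (adjusted p = 0.137), although it did without DMSO replicate 4 (0.0292). At day 4 it had 147, 148, 142 and 137 CPM in 4OHT organoids, against 126, 119, 113 and 108 CPM in DMSO organoids. All 4 treated libraries were above all 4 controls there, and Acaa1a rose by 0.30 ± 0.06 (adjusted p = 0.00378). The thiolase genes share sequence: 30.5% of the 50-base windows of Acaa1b occur in Acaa1a, and 12.4% of those of Acaa1a in Acaa1b, so reads may be split between them. Their sum averaged 164 ± 18.4 CPM in 4OHT organoids and 200.5 ± 25.8 CPM in DMSO organoids at day 2 (SD, n = 4 each), and at day 4 it was 222 ± 8.29 CPM in 4OHT organoids and 187 ± 7.32 CPM in DMSO organoids. Acaa1b made up 14.6% to 16.2% of that sum in 4OHT libraries and 18.7% to 22.8% in DMSO libraries at day 2. At day 4 its share was 32.9% to 36.7% in 4OHT libraries and 34.7% to 39.8% in DMSO libraries. In GENCODE M21, Acaa1b and Acaa1a lie on chromosome 9, and 11.4% and 6.57% of their exon bases overlap Dlec1 and Myd88 on the opposite strand.

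The other peroxisomal members differed in how far they moved. Ehhadh encodes the bifunctional enzyme of the PPARα-inducible peroxisomal cycle. It had 62.7, 65.9, 56.8 and 55.1 CPM in 4OHT organoids at day 2, against 85.9, 80.8, 90.7 and 74.3 CPM in DMSO organoids. The groups did not overlap, and it fell by 0.45 on the log2 scale (SE 0.07, adjusted p = 5.60e-04). At day 4 Ehhadh fell less, by 0.15 (SE 0.04, adjusted p = 0.0216), again with no overlap. That call was lost without 4OHT replicate 1 or 3 or DMSO replicate 1 or 3 (adjusted p 0.0513 to 0.0738). It was also lost with all 16 libraries in the fit (0.0715), and held with the block (0.0033).

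Hsd17b4 encodes the other peroxisomal bifunctional enzyme, which also serves branched chains and bile acid intermediates. It had 141, 151, 131 and 124 CPM in 4OHT organoids at day 2, against 166, 158, 172 and 156 CPM in DMSO organoids. All treated libraries were below all controls (-0.25 ± 0.06, adjusted p = 0.0102). At day 4 the groups overlapped, with means of 165 ± 4.51 CPM in 4OHT organoids and 160.0 ± 1.39 CPM in DMSO organoids (SD, n = 4 each), and the difference of 0.05 ± 0.04 did not pass. Eci2, an enoyl-CoA isomerase found in peroxisomes and mitochondria, differed by -0.00 ± 0.05 at day 2 and rose by 0.25 ± 0.08 at day 4 (adjusted p = 0.0395). Of the 8 fits without 1 library, it passed only in the one without 4OHT replicate 2 and otherwise had an adjusted p of 0.0546 to 0.0985; with the block it was 0.00331. Pex11a, which promotes peroxisome division, fell by 0.20 at day 2 (SE 0.07, adjusted p = 0.0451), passing in only 2 of the 8 fits without 1 library (4OHT replicate 2 and DMSO replicate 4). At day 4 it differed by 0.11 ± 0.07 (adjusted p = 0.29).

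Of the 6 peroxisomal members, then, 4 fell and 0 rose at day 2, and 1 fell and 2 rose at day 4. Eci2, counted as peroxisomal although it is found in both compartments, was 1 of these 2. The 19 mitochondrial members include the import genes and the auxiliary enzymes. Of these 19, 7 fell and 1 rose at day 2, and 1 fell and 6 rose at day 4. The interaction passed for 3 of the 6 peroxisomal and 2 of the 19 mitochondrial members, with medians of 0.31 and 0.23. Of all genes, 14.3% fell and 16.9% rose at day 2, 11.1% fell and 13.7% rose at day 4, and 1.2% passed the interaction with a positive sign. The shares of mitochondrial members that rose at day 2 (5.26%) and that fell at day 4 (5.26%) lay below those of all genes, but each rests on 1 member. Whether the compartments differed from each other was not tested.

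**Figure D2:**
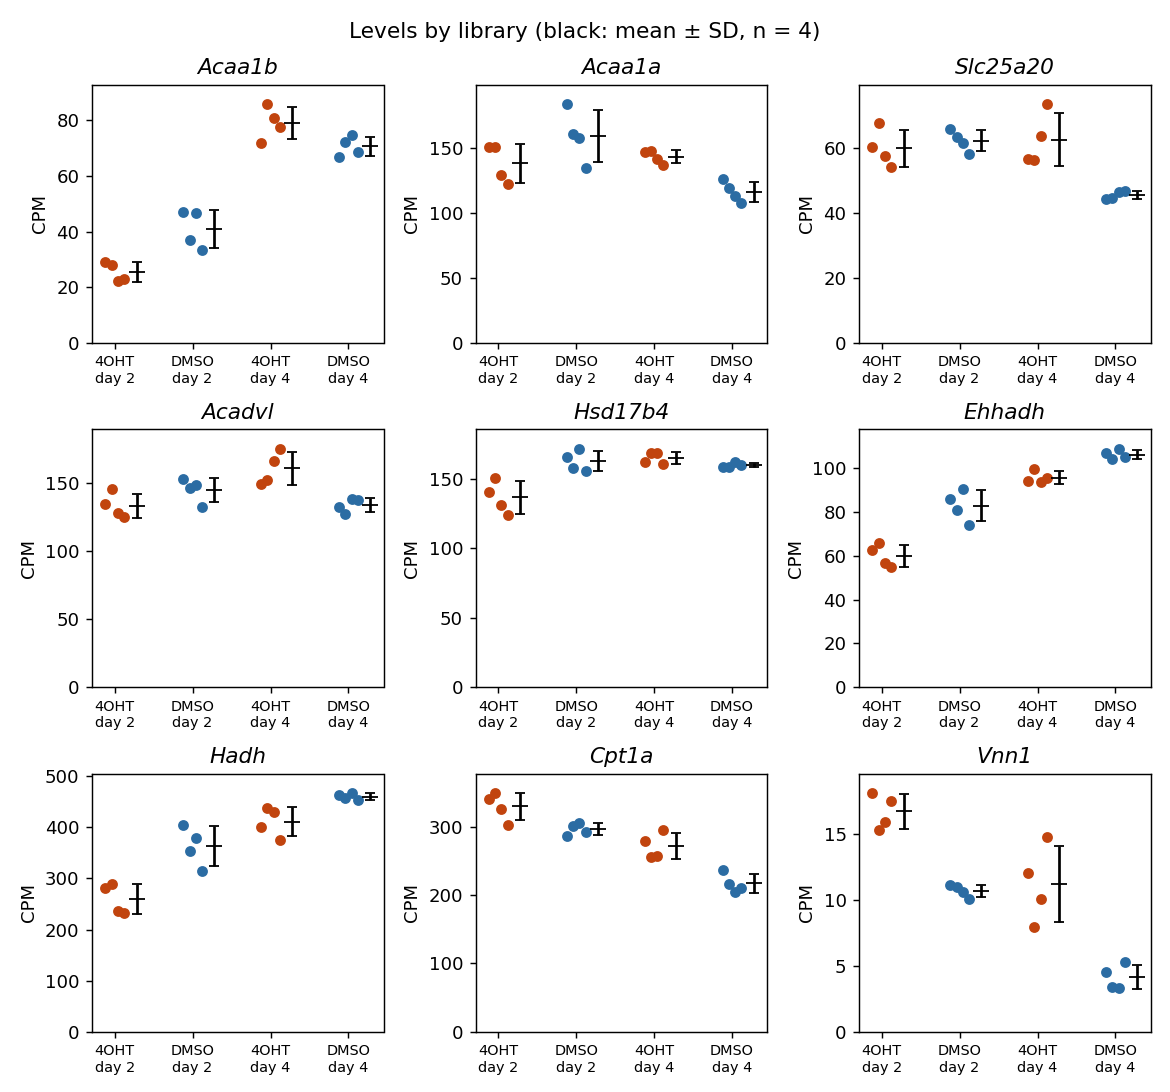
CPM of 9 members in each of the 16 libraries (orange, 4OHT; blue, DMSO), with mean and SD in black; each axis starts at 0. The 4OHT points lie below the DMSO points at day 2 for Acaa1b, Hsd17b4, Ehhadh and Hadh, and above them at day 4 for Acaa1a, Slc25a20, Acadvl, Cpt1a and Vnn1.

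The members for the import of long-chain fatty acids all passed the test at day 4, although not in 1 direction. Of these 4, 3 rose and 1 fell, where 13.7% of all genes rose and 11.1% fell. The calls of Cpt2 and Acsl1 were each lost in at least 1 fit without 1 library. Slc25a20 encodes the carnitine-acylcarnitine carrier of the inner mitochondrial membrane. It had 60.3, 67.9, 57.6 and 54.4 CPM in 4OHT organoids at day 2, against 65.9, 63.4, 61.8 and 58.2 CPM in DMSO organoids. The groups overlapped (-0.04 ± 0.07, adjusted p = 0.662). At day 4 it had 56.6, 56.3, 63.9 and 73.7 CPM in 4OHT organoids, against 44.4, 44.7, 46.4 and 47 CPM in DMSO organoids. All treated libraries were then above all controls, and it rose to 137% of the DMSO level (0.46 ± 0.08, adjusted p = 0.00275). The difference between days was 0.51 ± 0.11 (adjusted p = 0.0281).

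Cpt1a encodes the liver-type carnitine palmitoyltransferase of the outer membrane, which controls entry of long chains into the cycle. It had 341, 349.6, 326 and 303 CPM in 4OHT organoids at day 2, against 287, 301, 306 and 293 CPM in DMSO organoids. One treated library lay within the control range. The rise of 0.16 ± 0.05 (adjusted p = 0.032) passed in only 2 of the 8 fits without 1 library (4OHT replicate 4 and DMSO replicate 3). In the other 6 the adjusted p was 0.0514 to 0.102, and with all 16 libraries in the fit it was 0.0614. At day 4 Cpt1a had 279.8, 256, 258 and 296 CPM in 4OHT organoids, against 237, 217, 205 and 211 CPM in DMSO organoids. The groups did not overlap, and it rose by 0.33 ± 0.07 (adjusted p = 0.00509). Cpt2, the inner membrane transferase that releases acyl-CoA into the matrix, differed by -0.06 ± 0.06 at day 2 and rose by 0.21 ± 0.05 at day 4 (adjusted p = 0.0164; 0.0522 without 4OHT replicate 3).

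Acsl1, the acyl-CoA synthetase that activates long chains, was the import gene that fell on both days. It had 63.8, 64.4, 57.2 and 55 CPM in 4OHT organoids at day 2, against 71.8, 72.6, 80.5 and 75.6 CPM in DMSO organoids. With no overlap between the groups, it fell by 0.31 (SE 0.06, adjusted p = 0.00244). Acsl1 at day 4 had 78, 84.6, 80.0 and 74.3 CPM in 4OHT organoids, against 86.4, 91.9, 87.1 and 90.1 CPM in DMSO organoids, again with no overlap. That fall of 0.16 (SE 0.05, adjusted p = 0.0338) passed without 4OHT replicate 2 and missed without any other 1 library (adjusted p 0.056 to 0.0854), and with the block it passed (0.00174). An unclassified transcript on the opposite strand overlaps 9.91% of the exon bases of Acsl1.

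The acyl-CoA dehydrogenases open each turn of the cycle, and each prefers a chain length. None of the 4 passed at day 2, with log2 fold changes of -0.13 to 0.09. The lowest, Acadm at -0.13 ± 0.05 (adjusted p = 0.0887), passed without DMSO replicate 4 (0.0241). At day 4, Acadvl and Acadl, for very long and long chains, rose, while Acadm and Acads, for medium and short chains, did not pass. Acads was near the cutoff and passed under other settings, and the call of Acadl was lost without some libraries. Whether chain lengths differed was not tested. Acadvl had 134, 145, 128 and 125 CPM in 4OHT organoids at day 2, against 153, 146, 148 and 132 CPM in DMSO organoids. These groups overlapped (-0.11 ± 0.06, adjusted p = 0.185; 0.0366 without DMSO replicate 4). Acadvl at day 4 had 149, 152, 166 and 175 CPM in 4OHT organoids, against 132, 127, 138 and 137 CPM in DMSO organoids. The treated libraries were then all higher (0.27 ± 0.06, adjusted p = 0.00805), and the difference between days was 0.38 ± 0.09 (adjusted p = 0.0339). Exons of Dvl2 on the opposite strand cover 42.9% of the exon bases of Acadvl, and whether the counting used strand is not given in the sources used here.

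Acadl had 121, 114, 137 and 155 CPM in 4OHT organoids at day 4, against 106, 101, 109 and 113 CPM in DMSO organoids. All 4 treated libraries were higher, by widely differing amounts (0.30 ± 0.09, adjusted p = 0.0296). The call was lost without 4OHT replicate 3 or any 1 DMSO library (adjusted p 0.0505 to 0.0855), and with the block it was 0.00186. Acads differed by 0.17 ± 0.06 at day 4 with no overlap between the groups, and its adjusted p was 0.0639. It passed with the block (0.00917), DESeq2 (0.0447), a filter of 1 CPM in 4 libraries (0.0458) and all 16 libraries in the fit (0.0287). It also passed without 4OHT replicate 1 (0.0371) or 2 (0.0478). Acadm differed by 0.02 ± 0.05 (adjusted p = 0.759).

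The enzymes of the later matrix steps did not move as one. Hadh, the short-chain 3-hydroxyacyl-CoA dehydrogenase, had the largest fall among the mitochondrial members at day 2. It had 281, 289, 236 and 232 CPM in 4OHT organoids, against 405, 353, 379.7 and 314 CPM in DMSO organoids. The groups did not overlap, and Hadh fell to 71.9% of the DMSO level (-0.48 ± 0.09, adjusted p = 0.00181). Hadh at day 4 had 400.2, 438, 429 and 376 CPM in 4OHT organoids, against 463, 457, 467 and 453 CPM in DMSO organoids. The treated libraries were again all lower, by 0.16 (SE 0.06), with an adjusted p of 0.057 that passed with the block (0.00424) and without 4OHT replicate 2 (0.0332).

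Acaa2, the mitochondrial thiolase for medium and long chains, differed by 0.01 ± 0.07 at day 2. It had 174, 172, 182 and 199 CPM in 4OHT organoids at day 4, against 161, 154, 155 and 154 CPM in DMSO organoids. All treated libraries were higher (0.22 ± 0.05, adjusted p = 0.0121). Acat1, which cleaves and forms acetoacetyl-CoA and so stands between fat oxidation and ketone bodies, fell at day 2 (-0.19 ± 0.05, adjusted p = 0.0105). At day 4 Acat1 had 80.6, 81.5, 82.7 and 78.4 CPM in 4OHT organoids, against 91.7, 85.8, 90.9 and 84.9 CPM in DMSO organoids. The groups did not overlap there either (-0.13 ± 0.04, adjusted p = 0.0622; 0.00665 with the block). Hadha and Hadhb differed by -0.10 ± 0.06 and -0.09 ± 0.05 at day 2 and by 0.12 ± 0.05 and 0.06 ± 0.05 at day 4, and neither passed; with the block Hadha passed at day 4 (adjusted p = 0.0108).

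The electron transfer flavoprotein takes electrons from the acyl-CoA dehydrogenases and hands them to the respiratory chain through a dehydrogenase, Etfdh. Etfa, its α subunit, had 136, 142, 128 and 130.2 CPM in 4OHT organoids at day 2, against 176, 155, 157 and 146 CPM in DMSO organoids. The groups did not overlap, and Etfa fell by 0.23 (SE 0.06, adjusted p = 0.0104). Etfdh fell by 0.20 (SE 0.06, adjusted p = 0.017), and Etfb, the β subunit, differed by -0.18 ± 0.08 (adjusted p = 0.0964; 0.0483 and 0.0425 without DMSO replicate 3 or 4). None of the 3 passed at day 4, where the differences were -0.10 ± 0.06 for Etfa, 0.04 ± 0.04 for Etfdh and 0.11 ± 0.07 for Etfb; with the block Etfa passed (adjusted p = 0.0356). A predicted gene on the same strand covers 53% of the exon bases of Etfb, so its reads may be shared.

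Auxiliary enzymes prepare unsaturated chains for the cycle. Eci1, the mitochondrial enoyl-CoA isomerase, had 48.3, 52.6, 45.7 and 47.6 CPM in 4OHT organoids at day 2, against 71.3, 62, 54.7 and 53.7 CPM in DMSO organoids. The treated libraries were all lower, and Eci1 fell by 0.30 (SE 0.08, adjusted p = 0.015). Decr1, the 2,4-dienoyl-CoA reductase, fell by 0.26 (SE 0.07, adjusted p = 0.0119), and Ech1, a dienoyl-CoA isomerase, differed by -0.06 ± 0.07. At day 4 these 3 differed by -0.06 ± 0.05, -0.03 ± 0.05 and 0.22 ± 0.08 in that order, and none passed; Ech1 passed with the block (adjusted p = 0.00273).

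**Figure D3:**
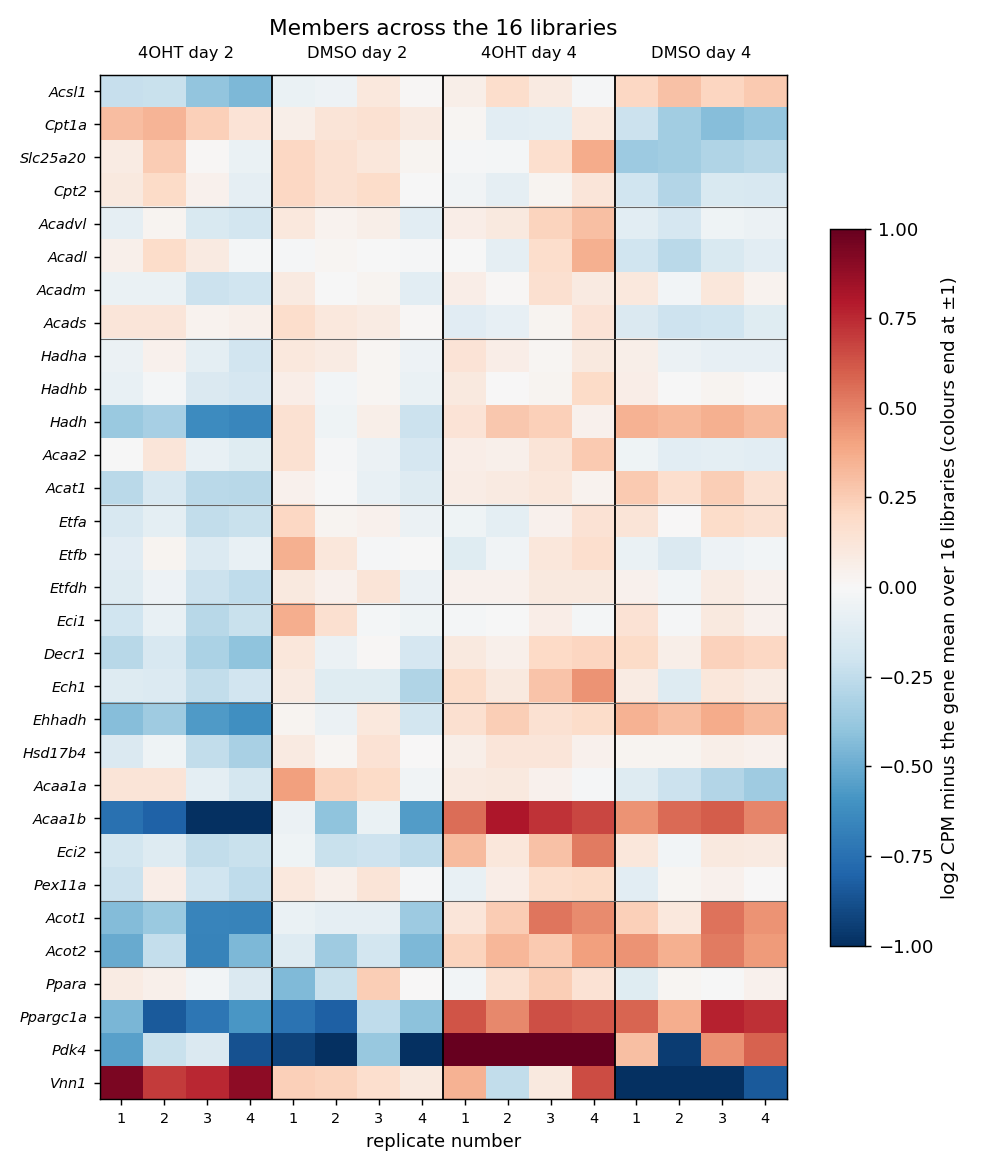
Log2 CPM of the 31 members in the 16 libraries, as the difference from each gene's mean over all libraries; rows follow the roles in the order import, matrix dehydrogenases, later matrix steps, electron transfer, auxiliary enzymes, peroxisome, thioesterases, and regulators with PPARα targets. In 4OHT day 2 libraries 25 of the 30 members tested lie lower on average than in DMSO day 2 libraries; Acaa1b, Ppargc1a, Pdk4 and Vnn1 span the widest range.

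Acot1 and Acot2 are neighbouring paralogs for a cytosolic and a mitochondrial acyl-CoA thioesterase, which free fatty acids from CoA. Acot1 had 29, 30.3, 24.8 and 24.7 CPM in 4OHT organoids at day 2, against 37.5, 36.9, 36.8 and 30.5 CPM in DMSO organoids. It fell by 0.37 with no overlap (SE 0.08, adjusted p = 0.00568), and at day 4 it differed by 0.01 ± 0.11. Acot2 differed by -0.17 ± 0.10 and -0.13 ± 0.07 and passed on neither day. Since 24.5% of the 50-base windows of Acot2 occur in Acot1, reads may be split here too; the sum of the pair averaged 32.9 ± 3.43 CPM in 4OHT organoids and 41.9 ± 3.87 CPM in DMSO organoids at day 2 (SD, n = 4 each), and at day 4 it was 59.8 ± 6.82 CPM in 4OHT organoids and 60.4 ± 7.16 CPM in DMSO organoids.

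Ppara itself, the receptor that drives this programme in fasting liver, did not pass on either day. It had 56.1, 55, 52.1 and 47.8 CPM in 4OHT organoids at day 2, against 39.1, 45.3, 62.9 and 53.2 CPM in DMSO organoids. These groups overlapped widely (0.08 ± 0.12, adjusted p = 0.635). At day 4 the difference was 0.15 ± 0.06 (adjusted p = 0.104; 0.00486 with the block, and 0.0281 without 4OHT replicate 1). Ppargc1a, a coactivator of mitochondrial genes, differed by -0.10 ± 0.13 and -0.02 ± 0.08.

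Vnn1, a pantetheinase and PPARα target, rose on both days. It had 18.1, 15.3, 15.9 and 17.5 CPM in 4OHT organoids at day 2, against 11.1, 11, 10.6 and 10.1 CPM in DMSO organoids. Vnn1 at day 4 had 12, 7.96, 10.1 and 14.8 CPM in 4OHT organoids, against 4.55, 3.43, 3.34 and 5.26 CPM in DMSO organoids. The groups overlapped on neither day, and Vnn1 rose to 157% and 272% of the DMSO level (0.65 ± 0.06 and 1.44 ± 0.20, adjusted p = 1.53e-05 and 8.38e-04). The difference between the days, 0.80 ± 0.22, did not pass (adjusted p = 0.0736). It passed without 4OHT day 4 replicate 2 (0.0178) and with the block (5.39e-04), although replicate numbers were not shown to pair libraries at day 2.

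Pdk4, the kinase that shuts pyruvate out of the mitochondrial oxidation of glucose when fat is burned, was close to the detection limit. It had 6, 8, 7 and 6 counts in 4OHT organoids at day 2, against 5, 3, 8 and 3 counts in DMSO organoids, and was too low for the test. At day 4 it had 47, 22, 18 and 39 counts in 4OHT organoids, against 14, 6, 11 and 12 counts in DMSO organoids. Every treated library was higher there, and Pdk4 rose 2.87-fold (1.52 ± 0.38, adjusted p = 0.0152), which held without any 1 library (adjusted p 0.0108 to 0.0409).

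Per kilobase of exon, the members spanned a wide range of levels. In 4OHT organoids at day 4 the highest levels were those of Acaa2 (120.0 CPM per kb), Etfa (83.8), Hadh (82.5) and Ech1 (81.7), and the lowest were those of Pdk4 (0.112), Ppargc1a (2.12) and Acot2 (4.41). In DMSO organoids at day 4 Acaa2 (103), Hadh (92.4), Etfa (90.0) and Ech1 (70.3) led as well, and Pdk4 (0.0403), Vnn1 (1.72) and Ppargc1a (2.15) were lowest. At day 2 the highest was Acaa2 in both, at 108 CPM per kb, and the lowest was Pdk4, at 0.0261 in 4OHT organoids and 0.0162 in DMSO organoids. Neighbours such as Etfa, Hadh and Ech1 in 4OHT organoids at day 4 lay within each other's spread between libraries.

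The change from day 2 to day 4 shows the same difference from the other side, since it uses the same libraries. At an adjusted p below 0.05, 21 of the 31 members tested in 4OHT organoids rose by day 4 and 2 fell, where 25.9% of all genes rose and 23.5% fell. In DMSO organoids 10 of 30 members rose and 7 fell by the same test, where 28.7% of all genes rose and 24.8% fell. The estimates were positive for 27 and negative for 4 members in 4OHT organoids, and positive for 15 and negative for 15 in DMSO organoids. Acaa1b rose over time by 1.63 ± 0.09 in 4OHT organoids and by 0.79 ± 0.10 in DMSO organoids (adjusted p = 1.16e-06 and 4.87e-05). Slc25a20 differed by 0.06 ± 0.09 between the days in 4OHT organoids and fell by 0.44 in DMSO organoids (SE 0.05, adjusted p = 1.48e-05). Acaa1a likewise differed by 0.05 ± 0.07 in 4OHT organoids and fell by 0.45 in DMSO organoids (SE 0.09, adjusted p = 7.53e-04). Acadvl and Hsd17b4 rose by 0.27 ± 0.06 each in 4OHT organoids (adjusted p = 0.00525 and 0.00362) and differed by -0.11 ± 0.05 and -0.02 ± 0.05 in DMSO organoids. Ppargc1a rose by 1.24 ± 0.09 in 4OHT organoids and by 1.16 ± 0.12 in DMSO organoids, and Vnn1 fell by 0.58 in 4OHT organoids and by 1.37 in DMSO organoids (SE 0.16 and 0.12).

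**Figure D4:**
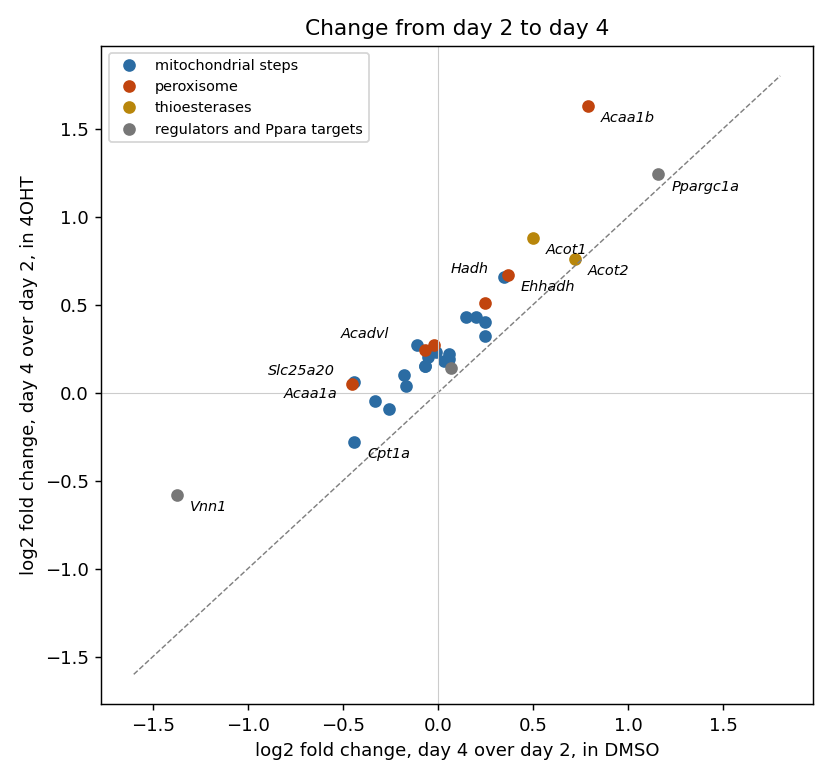
Log2 fold change from day 2 to day 4 in 4OHT organoids (vertical) and in DMSO organoids (horizontal) for the 30 members tested in both, coloured by role; the dashed line marks equal change. All 30 points lie above the line; Acaa1b (1.63 in 4OHT, 0.79 in DMSO) and Vnn1 (-0.58 in 4OHT, -1.37 in DMSO) lie farthest from it.

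Markers of absorptive enterocytes, the cells that take up dietary fat, moved over the days as well. Of the 8 listed enterocyte markers, 6 fell and 0 rose in 4OHT organoids at day 2, and 0 fell and 2 rose at day 4. Of all genes tested, 14.3% fell and 16.9% rose at day 2, and 11.1% fell and 13.7% rose at day 4. All 8 enterocyte markers had positive interaction estimates, with a median of 0.62, and 1 passed the test. Their summed level was 3629 to 5220.0 CPM in 4OHT organoids and 5211 to 7048 CPM in DMSO organoids at day 2, and at day 4 it was 7096 to 9979 CPM in 4OHT organoids and 7792 to 8470.3 CPM in DMSO organoids. The 5 goblet cell markers all rose at day 2 and 4 rose at day 4, with summed levels of 6267 to 8302 CPM in 4OHT organoids and 4056 to 4695 CPM in DMSO organoids at day 2, and at day 4 they were 5876 to 8053 CPM in 4OHT organoids and 3058 to 4289 CPM in DMSO organoids. All 4 stem cell markers fell on both days. Interaction estimates were also positive for all 5 goblet cell markers (median 0.35, 2 passed) and all 4 stem cell markers (median 0.26, 1 passed). The 4 listed Paneth cell markers had 2 positive and 2 negative estimates. Of all genes, 51.2% had a positive estimate and 1.2% passed with a positive sign. The part of these markers' changes in those of the fatty acid oxidation genes was not tested, and in bulk RNA fewer cells of a type and less RNA per cell cannot be told apart.

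The members are only part of the pathway, and the label of ketogenesis rests on Acat1 alone among them. Of 8 genes of ketone body synthesis and use, 3 fell and 1 rose at day 2, and 2 fell and 1 rose at day 4. The 12.5% that rose on each day was 1 gene, near the 16.9% and 13.7% of all genes that did. The 37.5% and 25% that fell, on counts of 3 and 2, lay above the 14.3% and 11.1% of all genes. Interaction estimates were positive for 4 of the 8 and negative for 4, with a median of -0.03, where 51.2% of all genes were positive. Oxct1, which commits ketone bodies to oxidation outside the liver, rose on both days (0.36 ± 0.05 and 0.77 ± 0.14, adjusted p = 2.80e-04 and 0.0028), and Bdh1, the 3-hydroxybutyrate dehydrogenase, fell on both (-0.29 ± 0.05 and -0.26 ± 0.04, adjusted p = 0.00109 and 9.11e-04).

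Of 21 other mitochondrial oxidation genes tested, 9 fell and 0 rose at day 2, and 3 fell and 4 rose at day 4. Of 35 other peroxisomal genes, 14 fell and 1 rose at day 2, and 4 fell and 8 rose at day 4. Slc27a2, a very long chain acyl-CoA synthetase, fell by 0.95 at day 2 (SE 0.13, adjusted p = 1.46e-04) and differed by -0.48 ± 0.19 at day 4 (adjusted p = 0.0944; 0.00746 with the block). Of other PPARα targets, 6 of 19 fell and 2 rose at day 2, and 0 of 20 fell and 6 rose at day 4. Interaction estimates were positive for 17 of the 21 mitochondrial genes, 32 of the 35 peroxisomal genes and 17 of the 20 targets. Their medians were 0.12, 0.23 and 0.33 in that order. Set against the 14.3% of all genes that fell and 16.9% that rose at day 2, a larger share of each of these 3 lists fell (31.6% to 42.9%) and a smaller share rose (0% to 10.5%). At day 4 the shares that rose were 19% to 30.0%, against 13.7% of all genes, and those that fell were 0% to 14.3%, against 11.1%; of all genes, 51.2% had a positive interaction estimate. The related receptor genes Ppard and Pparg rose by 0.40 ± 0.04 and 0.69 ± 0.05 at day 2 and by 0.39 ± 0.05 and 0.66 ± 0.14 at day 4 (adjusted p = 1.19e-05, 1.27e-06, 3.00e-04 and 0.00603).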

How the data were processed

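Per the labels' protocols, poly(A) RNA libraries were made with a directional second-strand module. The submitters' processing notes name bcl2fastq 1.8.4, STAR 2.4.0f1 and the build GRCm38; which counter, annotation and strand setting were used is not given in the sources used here. The authors deposited whole-number read counts per gene in 1 table per day, with 8 libraries each. Only these counts were used; 14 symbols written as dates at day 4 were replaced through their gene ID. Reads carry no molecular identifiers.

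The test was edgeR's quasi-likelihood F test (edgeR 4.0.16 with limma 3.58.1 in R 4.3.3), after filterByExpr and TMM scaling and with robust fits. Genes were called at a Benjamini-Hochberg adjusted p below 0.05 over all genes tested. Fits held the 8 libraries of 1 day for treatment, the 8 of 1 treatment for time, and all 16 for the interaction. The standard error (SE) was taken as the size of the log2 fold change over the root of F. The tests were also run on simulated counts, drawn independently for each library and thus without paired libraries. The outcome is not reported here. In the 24 pairs of libraries of 1 group, none was a copy of another. Positions and exon lengths are from GENCODE M21 and promoters from RefSeq; exons of a member were compared with those of its copies in windows of 50 bases.

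Whether replicate numbers pair libraries was checked from the correlation of their deviations from group means, over genes above a log2 CPM of 3. Between 4OHT and DMSO libraries of the same number it was 0.632 to 0.81 at day 4, over the required 0.1 in every pair, and -0.11 to 0.475 at day 2. The day 4 pairing is read from the data alone; no label states a shared batch. Alternatives were DESeq2 1.42.0, its size factors in edgeR, no filter, a filter of 1 CPM in 4 libraries, a replicate block, thinning to the smallest total, all 16 libraries in the fit, adjusted p below 0.01, a fold change of 1.5, and each library left out; the block without 4OHT day 4 replicate 4 was added after seeing the data.

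Every member was named. Further pathway lists could give 4 names each: 2 by lowest p, 2 by highest mean level. The members, lists and rules were chosen with earlier results of these data known. Some further genes of the pathway are not reported here.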

Additional observations from a re-analysis of the deposited data

Results flagged for a closer look

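The treatment effect differed between the days by the interaction test for 6 of the genes named, on the log2 scale as day 4 minus day 2: Acaa1b by 0.84, Acad11 by 0.53, Slc25a20 by 0.51, Acaa1a by 0.51, Acadvl by 0.38 and Hsd17b4 by 0.30. Acad11, an acyl-CoA dehydrogenase for very long chains, averaged 84.6 ± 10.8 CPM in 4OHT organoids and 95.1 ± 9.17 CPM in DMSO organoids at day 2, and at day 4 it averaged 117 ± 6.03 CPM in 4OHT organoids and 91 ± 2.25 CPM in DMSO organoids (SD, n = 4 each). Without 1 library, Acad11 passed in 9 of 16 fits.

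In 7 of the 152 groups of 4 libraries examined, 1 library stood far from the other 3 (6 of 124 among the members); chance flags about 1 in 20. Hadha had 323 CPM in DMSO day 4 replicate 1, against 293 to 298 in the others, and Acaa2 had 161 CPM in the same library, against 154 to 155. Acat1 had 68.4 CPM in 4OHT day 2 replicate 2, against 63.3 to 63.5, and Pex11a had 26 CPM in the same library, against 20.9 to 21.7. Acot1 had 30.5 CPM in DMSO day 2 replicate 4, against 36.8 to 37.5. Ppargc1a had 12.9 CPM in 4OHT day 4 replicate 2, against 14.2 to 14.4. Pparg had 68.9 CPM in 4OHT day 2 replicate 1, against 75.6 to 76.8.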

How the results depend on the processing

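For treatment, the members that rose at day 2 numbered 1 with all 16 libraries in the fit, 1 at an adjusted p below 0.01 and 1 past a 1.5-fold change; 5 and 1 fell under the last pair of settings. At day 4 the members that fell numbered 4 with DESeq2, 5 with the replicate block, 6 with the block and without 4OHT day 4 replicate 4, 1 with all 16 libraries, and 0 at both an adjusted p below 0.01 and a 1.5-fold change; 5 and 2 rose under that pair. Interaction calls numbered 8 with DESeq2, 16 with the block, 0 at an adjusted p below 0.01 and 1 past 1.5-fold. The replicate numbers pair libraries at day 4 but were not shown to at day 2, where the block called 2 that rose and 13 that fell. At day 4 the block also called more of all genes, 22.8% higher and 22.2% lower, against 13.7% and 11.1% in the main test. Shares of all genes under most other settings are not given here, so these counts show only how far the members' calls moved. Over time, past 1.5-fold, 7 rose and 0 fell in 4OHT organoids, where 1 fell at an adjusted p below 0.01, and 3 rose and 1 fell in DMSO organoids. Leaving out 1 library gave 1 to 2 members that rose and 11 to 16 that fell at day 2, 7 to 12 and 0 to 3 at day 4, 1 to 9 positive and 0 to 0 negative interactions, and, over time, 18 to 22 that rose and 2 to 3 that fell in 4OHT organoids and 9 to 12 and 7 to 9 in DMSO organoids. The rises at day 2 numbered 1 without 4OHT replicate 1, 2 or 3 or DMSO replicate 1, 2 or 4. The falls at day 4 numbered 0 without 4OHT replicate 1 or 3 or DMSO replicate 1 or 3, and 1 without 4OHT replicate 4 or DMSO replicate 2 or 4. The direction of values that did not pass turned for Acaa2 at day 2 with no filter (-0.00) and for Ppargc1a at day 4 with the block and without 4OHT replicate 4 (0.01). It also turned within the range over fits without 1 library: at day 2 for Acads (-0.04 to 0.02), Acaa2 (-0.05 to 0.07), Ech1 (-0.13 to 0.01), Eci2 (-0.04 to 0.04), Ppara (-0.02 to 0.20) and Ppargc1a (-0.18 to 0.00); at day 4 for Acadm (-0.01 to 0.05), Decr1 (-0.06 to 0.00), Acot1 (-0.06 to 0.08) and Ppargc1a (-0.09 to 0.03); in the interaction for Acot2 (-0.01 to 0.13), Ppara (-0.05 to 0.17), Ppargc1a (-0.02 to 0.17), Ppard (-0.02 to 0.02) and Pparg (-0.19 to 0.07); over time in DMSO organoids for Hadhb (-0.01 to 0.05), Eci1 (-0.12 to 0.03) and Ppara (-0.04 to 0.18), and in 4OHT organoids for Slc25a20 (-0.02 to 0.12), Acadl (-0.05 to 0.10) and Acaa1a (-0.01 to 0.09). The cause was not tested. Thinning to the smallest total changed no count of calls by over 1.5 times. Depth limits Pdk4 only, with 3 to 47 counts per library.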
